A study of Rattus norvegicus with 28 samples.

Results

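The 8 genes described here are the chains of the rat MHC class II molecules that the arrays measured, the invariant chain gene Cd74 and the class II transactivator gene Ciita. They are RT1-Da and RT1-Db1 (alpha and beta chain of the RT1-D molecule), RT1-Ba and RT1-Bb (alpha and beta chain of the RT1-B molecule), RT1-DMa and RT1-DMb (both chains of the peptide editor DM), Cd74 and Ciita. They were chosen by name as genes of 1 system and not by a threshold on their signal. Earlier results of these data were known when they were chosen. All 8 of them were found among the 14217 genes measured. A gene reported by several probe sets was represented by the brightest, judged by mean endothelial signal. The 6 chain genes lie on rat chromosome 20, Cd74 on chromosome 18 and Ciita on chromosome 10.

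Endothelial cells of male rats were measured on 24 Affymetrix arrays in 8 groups of 3 biological replicates. The groups were hearts of untransplanted DA (Dark Agouti) rats, hearts of untransplanted Lewis rats, allografts, in which a DA heart was placed in a Lewis rat, and isografts, in which both were Lewis, with both kinds of graft taken on days 2, 3 and 4. Grafts were joined to neck vessels with cuffs, cells carrying the leukocyte protein CD45 were removed from the minced heart with an antibody and beads, and cells carrying CD31 were then collected. CD31 is also carried by platelets and many leukocytes, so this is an enrichment and not a pure population. Leukocytes enriched from allografts, labelled as Lewis cells, filled 4 further arrays, 1 of day 2, 2 of day 3 and 1 of day 4. The labels do not say whether an array held 1 animal, and p-values measure the spread between these samples.

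MHC class II molecules present peptides from the outside of a cell to CD4+ T cells. The chains pair in the endoplasmic reticulum around the invariant chain (Cd74), which guides them to endosomes, where proteases trim it and DM exchanges its last fragment for a peptide. Professional antigen-presenting cells (dendritic cells, B cells, activated macrophages) make these molecules constantly, whereas endothelial cells make them mainly after exposure to interferon-gamma, which switches on Ciita. Ciita does not bind DNA itself. It docks on proteins bound at the X box (RFX and CREB) and the Y box (NF-Y) of class II promoters.

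The promoters were searched for the letters of the X and Y boxes. A sequence of 300 bases around the annotated start (250 before, 50 after) was held in the RefSeq table (build GRCr8) for 6 of the 8 genes, namely RT1-Da, RT1-Db1, RT1-Ba, RT1-Bb, RT1-DMa and Cd74. The X core was searched as a G, any 2 bases, AC, any base and GATG, and the Y core as GATTGG, on both strands, with letters chosen after these sequences had been seen. The stretches of 130 bases directly before the start are given for the 4 chains that hold both cores and for RT1-Ba, which holds the Y core, each read 5′ to 3′ in the direction of its gene, with X and Y cores of either strand in capitals. They lie at chr20:4515285-4515414 (RT1-Da, plus strand), chr20:4560163-4560292 (RT1-Db1, minus strand), chr20:4604119-4604248 (RT1-Bb, minus strand), chr20:4712336-4712465 (RT1-DMa, minus strand) and chr20:4576927-4577056 (RT1-Ba, plus strand).
RT1-Da: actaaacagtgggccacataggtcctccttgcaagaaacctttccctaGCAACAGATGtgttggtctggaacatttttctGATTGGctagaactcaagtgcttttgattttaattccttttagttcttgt
RT1-Db1: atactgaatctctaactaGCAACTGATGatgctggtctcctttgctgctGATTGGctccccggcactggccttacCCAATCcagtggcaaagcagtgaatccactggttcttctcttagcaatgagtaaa
RT1-Bb: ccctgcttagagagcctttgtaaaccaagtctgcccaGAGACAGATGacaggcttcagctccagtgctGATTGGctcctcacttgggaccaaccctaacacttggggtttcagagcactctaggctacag
RT1-DMa: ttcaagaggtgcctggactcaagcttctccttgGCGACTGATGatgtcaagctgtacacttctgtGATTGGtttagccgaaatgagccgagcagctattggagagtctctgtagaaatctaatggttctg
RT1-Ba: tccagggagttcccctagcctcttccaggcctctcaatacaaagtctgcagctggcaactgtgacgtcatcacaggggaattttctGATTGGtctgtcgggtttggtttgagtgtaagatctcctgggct
The X core came first and the Y core followed on the same strand in all 4 of the double matches, with 32 bases between their first letters in RT1-Da and RT1-DMa and 31 in RT1-Db1 and RT1-Bb, so the matches did not overlap. Over all 33469 promoters of the table, 2.84% held the X core and 14.8% the Y core. In all, 8 promoters (0.0239%) held an X core with a Y core 20 to 45 bases after it. Next to these 4 chains they were RT1-Db2, RT1-DOb, Hsd17b7 and Ttc29. Since the letters were chosen with the member sequences in view, this share is no reference for the members' own matches. In the RT1-Ba window the Y core stood 44 bases before the start without these X letters, and the Cd74 window held neither. A match describes letters and was not tested as a binding site.

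**Figure D1:**
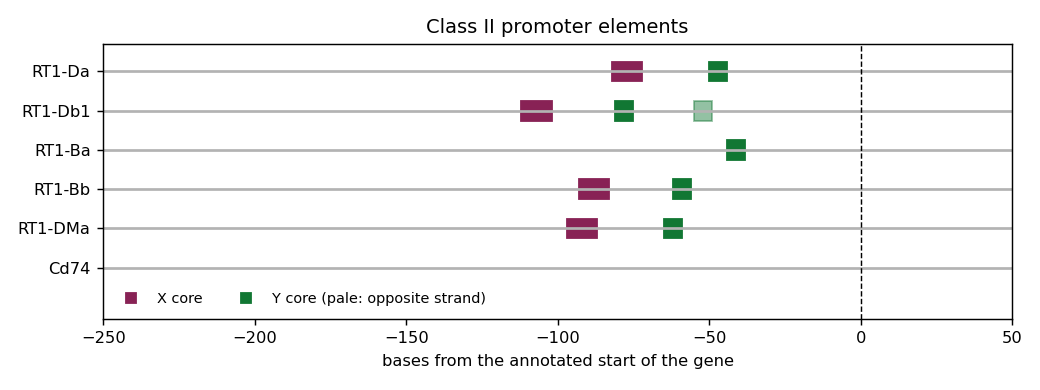
X core (purple) and Y core (green, pale where it lies on the opposite strand) in the promoter windows of 6 genes, with the horizontal axis giving bases from the annotated start of each gene. In RT1-Da, RT1-Db1, RT1-Bb and RT1-DMa the X core lies 82 to 112 bases before the start with a Y core 31 or 32 bases after it.

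The deposited log2 signals had array medians of 6.51 to 6.59 on the endothelial and 6.83 to 6.88 on the leukocyte arrays, so a gap of 0.353 between the medians of genes was removed wherever the 2 sets were set against each other. Precision is limited by the 3 arrays per group, with a median standard error (SE) of 0.165 log2 for differences between groups. Of 16 endothelial genes, the summed linear signal was 59329 to 85214 on the endothelial arrays and 5862 to 24325 on the leukocyte arrays, where both day 3 arrays had the most (13595 and 24325). Isograft day 2 replicate 2 and allograft day 4 replicate 3 stood apart from their groups in several class II genes, as given below, and Ptprc, which encodes CD45, was 7.87 on the first of these against 6.55 and 5.93 on the other 2 arrays of its group.

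In normal heart endothelium the class II genes were dim to moderate in signal, and in allografts 6 of the 8 were far higher from day 2 on. RT1-Da, the alpha chain of RT1-D, had log2 signals of 7.47, 6.95 and 6.79 on the DA normal arrays, 11.13, 10.14 and 10.04 on allograft day 2, 10.49, 11.22 and 11.43 on day 3 and 11.40, 12.00 and 12.18 on day 4. All 9 allograft arrays lay above all 3 DA normal arrays, and the days overlapped in part. Its beta chain partner RT1-Db1 had 6.13, 6.15 and 5.76 on the DA normal arrays, 8.96, 7.73 and 8.55 on day 2, 8.43, 9.01 and 9.71 on day 3 and 8.94, 10.22 and 10.48 on day 4. RT1-Bb, the beta chain of RT1-B, had 6.79, 6.47 and 6.42 on the DA normal arrays, 9.97, 9.08 and 9.52 on day 2, 9.55, 10.02 and 10.79 on day 3 and 10.29, 11.21 and 11.88 on day 4. For both of these the groups did not overlap with normal endothelium on any day.

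The chains of DM, which loads the peptide, had a narrower range. RT1-DMa was 6.9, 5.99 and 6.08 on the DA normal arrays and 7.63 to 9.42 on the 9 allograft arrays. RT1-DMb was 6.95, 6.64 and 6.51 on the DA normal arrays and 8.39 to 10.15 on the allograft arrays. Both were above DA normal endothelium on each of the 9 arrays. Cd74, the invariant chain, had 7.64, 7.65 and 7.84 on the DA normal arrays, 10.63, 9.73 and 10.19 on day 2, 10.39, 10.86 and 11.71 on day 3 and 10.75, 11.95 and 12.71 on day 4. The highest Cd74 signal of any endothelial array was that of allograft day 4 replicate 3.

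Ciita followed another course. It had 6.05, 5.81 and 5.90 on the DA normal arrays, 6.57, 6.78 and 5.88 on allograft day 2, 6.33, 6.56 and 6.71 on day 3 and 6.82, 7.21 and 9.07 on day 4. On day 2 a single array lay within the normal range, on days 3 and 4 none did, and the day 4 mean of 7.70 ± 1.2 (SD, n = 3) rests largely on replicate 3.

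**Figure D2:**
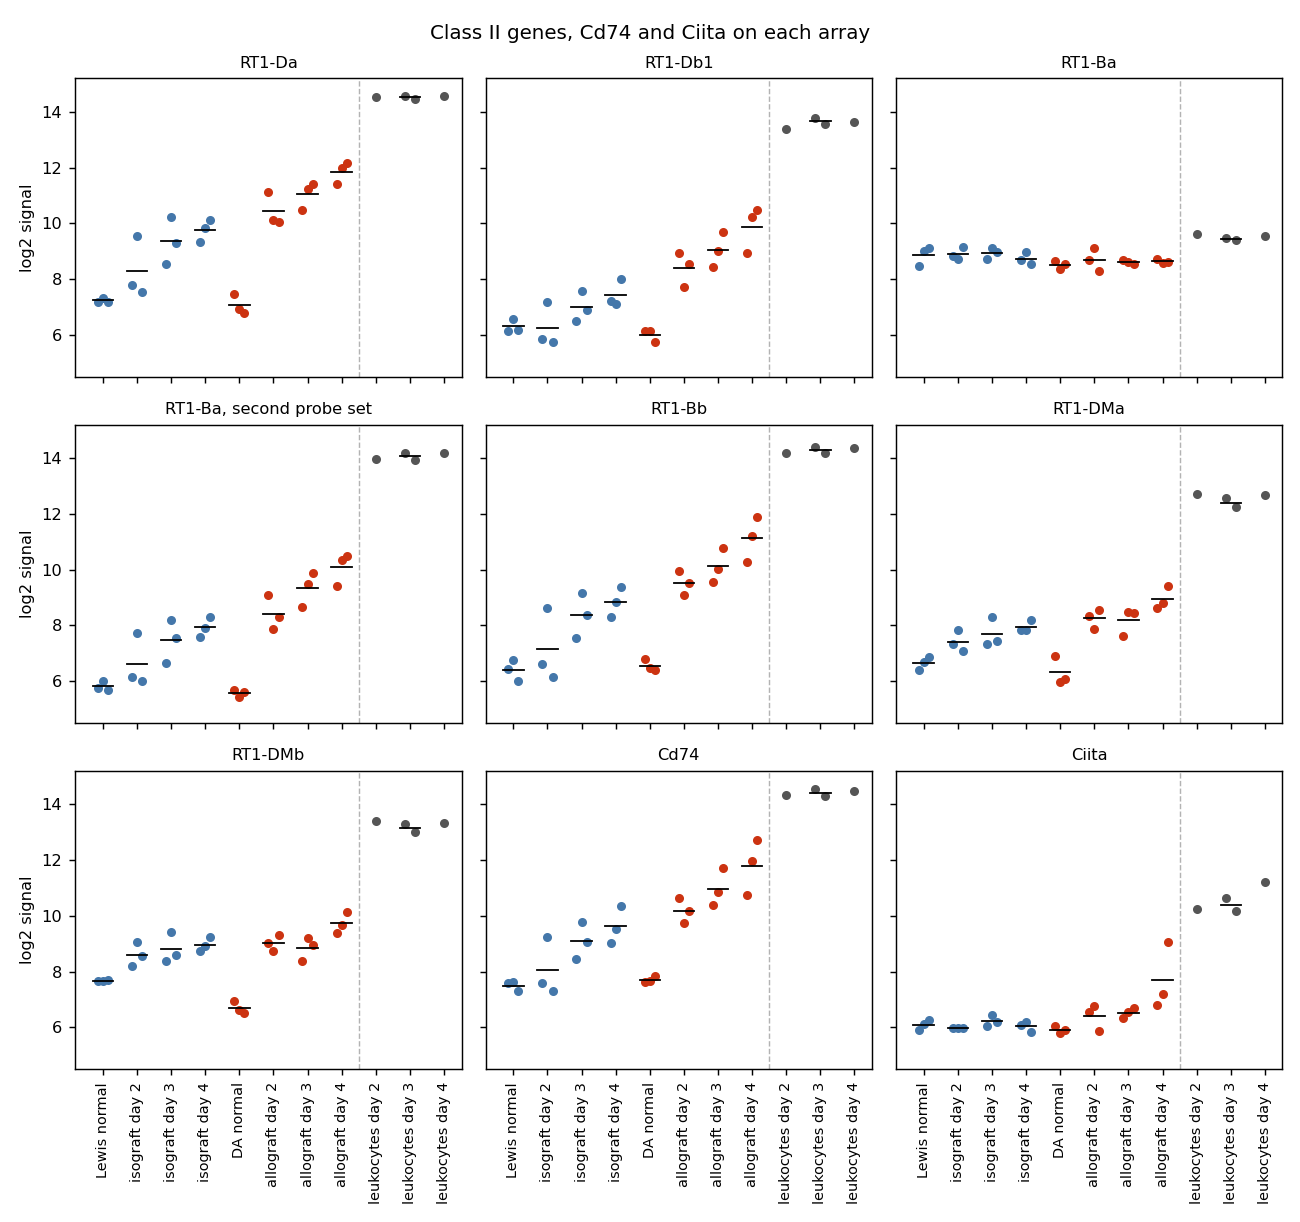
Deposited log2 signal (vertical axis) of each gene on every array by group, with isografts and Lewis normal in blue, allografts and DA normal in red, leukocytes in grey and the group mean as a line, and with RT1-Ba shown by 2 of its probe sets. RT1-Da runs from 6.79 to 7.47 in DA normal endothelium to 11.40 to 12.18 in allografts of day 4, while the first RT1-Ba probe set lies between 8.31 and 9.17 on all endothelial arrays.

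The comparison of allografts with DA normal hearts asks what changed in the vessel lining of a mismatched heart. The 4 genes RT1-Da, RT1-Bb, Cd74 and RT1-Db1 showed the largest differences among the members. On days 2, 3 and 4 RT1-Da rose by 3.37, 3.97 and 4.79 log2 (SE 0.45), which is 10.3-fold, 15.7-fold and 27.6-fold, with limma adjusted p = 9.51e-05, 2.85e-05 and 1.09e-06. RT1-Bb rose by 2.97, 3.56 and 4.57 log2 (SE 0.52, limma adjusted p at most 0.00145). Cd74 rose by 2.47, 3.27 and 4.10 log2 with an SE of 0.50 and limma adjusted p of 0.00396 or less, and RT1-Db1 by 2.40, 3.04 and 3.87 log2 with an SE of 0.44 and adjusted p of 0.00183 or less.

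Both DM chains rose too, RT1-DMb by 2.33, 2.15 and 3.04 log2 (SE 0.27, limma adjusted p at most 9.92e-05) and RT1-DMa by 1.94, 1.86 and 2.63 log2 with an SE of 0.30 and adjusted p of 0.00105 or less. On day 4 Ciita rose as well, by 1.78 log2 with an SE of 0.36 (adjusted p = 0.00232), while its differences of 0.49 and 0.61 log2 on days 2 and 3 did not pass the test (adjusted p = 0.516 and 0.636). Without allograft day 4 replicate 3 the Ciita difference was 1.09 log2 (limma adjusted p = 0.00236). RT1-Ba, in the probe set with the highest mean, differed by 0.18, 0.09 and 0.12 log2 (SE 0.19, adjusted p = 0.679 to 0.978).

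By count, 6, 6 and 7 of the 8 genes rose on days 2, 3 and 4 and 0 fell, where 3.53%, 1.55% and 7.19% of all 14217 genes rose and 2.45%, 0.724% and 4.26% fell. The members' median differences were 2.36, 2.59 and 3.46 log2, and those of all genes were 0.03, 0.00 and 0.00. Without adjustment (p under 0.05) the same counts were 6, 6 and 7, against 10.3%, 5.92% and 13.8% of all genes. Leaving out any 1 of the 24 arrays kept these counts at 6, 6 and 7. The allograft arrays of a day were all above the DA normal arrays for 6, 7 and 7 members, against 12.2%, 10.4% and 14% of all genes. In bulk samples a larger number of cells with class II RNA and more RNA per cell cannot be told apart.

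**Figure D3:**
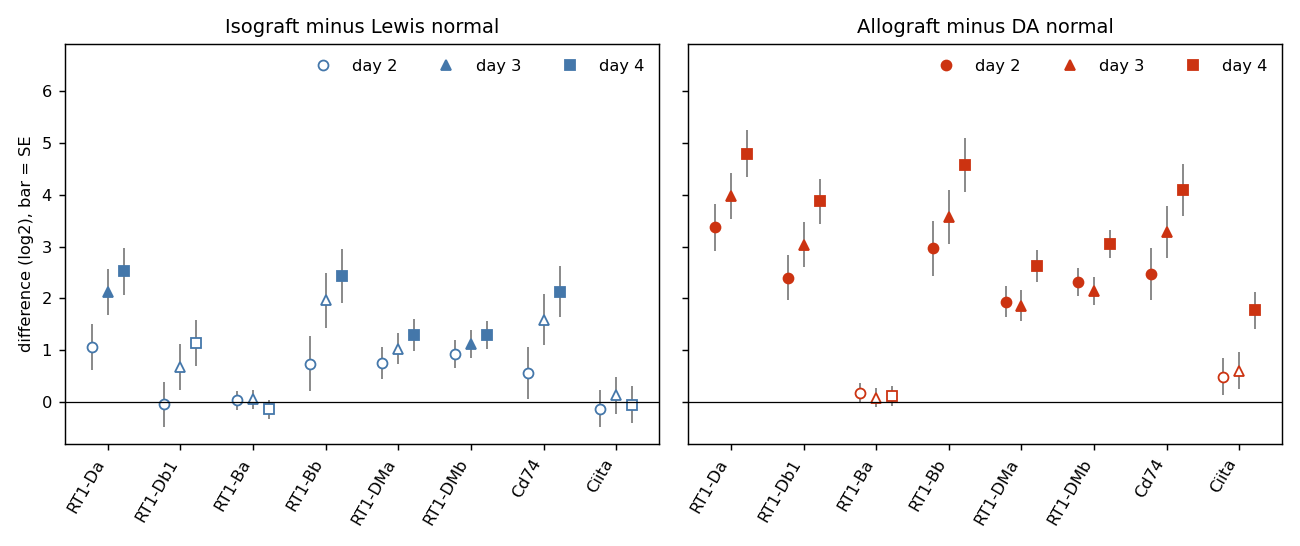
Difference from normal endothelium of the same strain (log2, bars give the SE) for each gene on days 2, 3 and 4, with isografts on the left and allografts on the right, and filled symbols where the limma adjusted p was under 0.05. RT1-Da reaches 4.79 in allografts and 2.52 in isografts, and RT1-Ba lies near 0 in both.

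The result for RT1-Ba depends on the probe set. Of its 4 probe sets, the 2 brightest were designed from the same database entry and passed the test in no comparison of grafts with normal endothelium. The next by mean, designed from another entry and called here the second RT1-Ba probe set, had 5.68, 5.42 and 5.60 on the DA normal arrays, 9.10, 7.88 and 8.29 on allograft day 2, 8.67, 9.50 and 9.88 on day 3 and 9.42, 10.35 and 10.50 on day 4. The normal arrays did not overlap with the allograft arrays of any day. In a fit over all 20826 probe sets with 1 gene, it rose by 2.85, 3.78 and 4.52 log2 (SE 0.44), with limma adjusted p = 0.000496 on day 2 and lower on both later days. The remaining probe set passed on day 4 alone, at 1.15 log2 (SE 0.24, adjusted p = 0.00349), where replicate 3 was highest at 7.48.

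Leukocytes separated the RT1-Ba probe sets in the same way. They had 9.4 to 9.64 in the brightest probe set, whose mean was 8.65 on the allograft endothelial arrays, and 13.92 to 14.20 in the second. Further probe sets of other members gave smaller differences than those used. That of RT1-Db1 rose by 1.16, 1.42 and 2.04 log2 (SE 0.26, limma adjusted p at most 0.0111), that of Ciita on day 4 by 0.91 log2 (SE 0.19, adjusted p = 0.00406), and that of RT1-Bb, with a mean of only 4.12 over the endothelial arrays, had -0.18, -0.05 and 0.01 log2 without passing. The first RT1-Db1 probe set carries the array maker's mark for probes shared by several transcripts, so its signal may include a close relative such as RT1-Db2.

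The comparison of isografts with Lewis normal hearts asks how much of this followed from the operation when donor and recipient matched. By day 4, 5 of the 8 members had risen in these hearts as well, and Ciita had not. RT1-Da had 7.20, 7.33 and 7.18 on the Lewis normal arrays, 7.79, 9.56 and 7.56 on isograft day 2, 8.55, 10.23 and 9.30 on day 3 and 9.33, 9.83 and 10.11 on day 4. All 9 isograft arrays were above the normal arrays, and on day 2 replicate 2 stood well above the other 2. Cd74 had 7.58, 7.62 and 7.30 on the Lewis normal arrays, 7.61, 9.25 and 7.31 on day 2, 8.44, 9.77 and 9.07 on day 3 and 9.01, 9.54 and 10.34 on day 4. Again day 2 replicate 2 was the highest of its group, and the other 2 arrays lay within the normal range.

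On days 3 and 4 RT1-Da rose by 2.12 and 2.52 log2 (SE 0.45, limma adjusted p = 0.0112 and 0.00215), and so did RT1-DMb, at 1.13 and 1.30 log2 (SE 0.27) with adjusted p = 0.027 and 0.00751. On day 4 the risers also included RT1-Bb at 2.44 log2 (adjusted p = 0.0105), Cd74 at 2.13 log2 (adjusted p = 0.0183) and RT1-DMa at 1.30 log2 (adjusted p = 0.0178). RT1-Bb and Cd74 had 1.96 and 1.59 log2 on day 3 without passing (adjusted p = 0.0505 and 0.111). RT1-Db1 had -0.04, 0.68 and 1.14 log2 and did not pass on any day (lowest adjusted p = 0.214). The isograft arrays of Ciita ranged from 5.85 to 6.46 and its normal arrays from 5.90 to 6.26, with differences of -0.12, 0.14 and -0.05 log2 (SE 0.36, adjusted p = 0.96 to 0.977). The second RT1-Ba probe set had 0.80, 1.65 and 2.11 log2 and passed on day 4 (SE 0.44, adjusted p = 0.00973).

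Thus 0, 2 and 5 of the 8 members rose in isografts on days 2, 3 and 4 by limma and 0 fell, where 1.06%, 1.8% and 2.61% of all genes rose, and 0.422%, 0.732% and 0.556% fell. At an unadjusted p under 0.05 the counts of higher members were 3, 5 and 6, against 5.89%, 6.8% and 8.95% of all genes. The medians over the members were 0.65, 1.08 and 1.30 log2. Single arrays moved these counts. On day 3, 0 members passed once isograft replicate 2 or Lewis normal replicate 1 was left out, and 1 passed without isograft replicate 3 or either of the remaining Lewis normal arrays. The day 4 count was 1 without isograft day 4 replicate 3 and 3 without any one of the 3 Lewis normal arrays. Arrays of a day were all above Lewis normal for 3, 5 and 6 members, against 9.87%, 12.2% and 12.9% of all genes.

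Ptprc ran alongside. Its log2 signal was 5.29 to 5.68 on all 6 normal arrays, 6.55, 7.87 and 5.93 on isograft day 2, 6.58, 8.21 and 7.63 on day 3, 8.08, 7.11 and 7.97 on day 4, and 7.80 to 9.50 on the 9 allograft arrays. The isograft day 3 array highest in RT1-Da and Cd74, replicate 2, was also the highest in Ptprc. The same array led all 3 genes on isograft day 2 and on allograft day 4 too. On isograft day 4, however, replicate 1 was highest in Ptprc (8.08) and lowest in RT1-Da (9.33) and Cd74 (9.01). On allograft days 2 and 3 the array highest in Ptprc was likewise not the highest in RT1-Da or Cd74. Fits with Ptprc as a covariate are given further on.

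The change in allografts was then set against the change in isografts. Allograft hearts were DA and isograft hearts Lewis, so mismatch and a strain difference in the response cannot be told apart. Every member had a larger mean change in allografts than in isografts, but in limma 0 members passed the test of that difference over all genes on any day. Averaged over the 3 days, the allograft change exceeded the isograft change by 2.51 ± 0.50 log2 (SE) in RT1-Db1, 2.14 ± 0.52 in RT1-Da, 1.98 ± 0.61 in RT1-Bb, 1.85 ± 0.58 in Cd74, 1.38 ± 0.31 in RT1-DMb, 1.11 ± 0.35 in RT1-DMa and 0.97 ± 0.41 in Ciita. In RT1-Ba it was 0.15 ± 0.22. The lowest adjusted p among the members was 0.381 (RT1-Db1), and on day 4 it was 0.25 (RT1-DMb).

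The test made few calls of any kind, with 0%, 0%, 0.00703% and 0.00703% of all genes higher on days 2, 3 and 4 and in the mean of days. At an unadjusted p under 0.05, 6, 5 and 7 members were higher by day and 7 in the mean, against 2.03%, 1.28%, 3.06% and 2.16% of all genes. Without allograft day 4 replicate 1, the lowest of that group in every member but RT1-Ba, 3 members passed on day 4, namely RT1-Db1 at 3.19 log2 (limma adjusted p = 0.0192), RT1-DMb at 1.92 (adjusted p = 0.0307) and Ciita at 2.27 (adjusted p = 0.025). In that fit 81 of all 14217 genes were called on day 4, against 1 with all arrays. Leaving out the lowest array of the higher group raises the difference by construction. Of 24 single omissions, this 1 alone changed the member count.

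The levels themselves can be set side by side. The allograft arrays were all above the isograft arrays of the same day for 5, 4 and 7 of the 8 members, against 5.79%, 7.68% and 6.21% of all genes. On day 4 the exception was RT1-Ba. Ordered by mean, RT1-Da, RT1-Db1, RT1-Bb, Cd74 and the second RT1-Ba probe set ran from allograft day 4 through day 3 and day 2 to isograft day 4 and day 3, with each neighbour overlapping the next. Over all days together, 0 members had the 9 allograft arrays above the 9 isograft arrays, where 0.535% of all genes did. Donor strain differs between the graft types, so strain and mismatch cannot be told apart in these levels.

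Between day 2 and day 4 of allografts, 7 members had higher means on day 4, by 0.69 (RT1-DMa) to 1.62 log2 (Cd74), and 0 passed in limma, where 0.38% of all genes rose. At an unadjusted p under 0.05 the count was 7, against 5.12% of all genes. Without allograft day 4 replicate 1, RT1-Db1, Cd74 and Ciita passed (limma adjusted p = 0.016, 0.0196 and 0.00586). That fit called 506 of all 14217 genes, against 54 with all arrays, and was the only 1 of 24 single omissions to change the member count. In isografts the same interval also gave 0 passing members and 4 at an unadjusted p under 0.05, where 0.0352% and 1.53% of all genes were called higher, with RT1-Bb at 1.69 and RT1-Da at 1.46 log2. Both of these passed without isograft day 2 replicate 2 (limma adjusted p = 0.0417 and 0.0447), where 17 of all genes were called, against 5 with all arrays. Here too, 1 of 24 single omissions changed the member count, and it left out the array highest in both genes on isograft day 2. The difference between the graft types over this interval was 1.22 ± 0.50 log2 (SE) for Ciita (unadjusted p = 0.0252, limma adjusted p = 1) and between -0.09 and 0.35 log2 for the other members, where 0.00703% of all genes were called higher after adjustment and 1.52% without.

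Normal endothelium of the strains gave 0 member calls in limma, where 0.485% of all genes were higher in DA and 0.528% lower. Without adjustment (p under 0.05) there were 0 higher members, against 3.71% of all genes, and 1 lower, for which the share of all genes is not given. That 1 was RT1-DMb, at 6.95, 6.64 and 6.51 in DA and 7.66, 7.65 and 7.70 in Lewis, with no overlap and a difference of -0.97 log2 (SE 0.27, unadjusted p = 0.00175, adjusted p = 0.115). It passed when only these 6 arrays were fitted, and with each of the 3 leukocyte covariates described below. The class II genes are highly variable between rat strains, and a difference in sequence under a probe cannot be told apart from a difference in RNA.

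Leukocytes of the allografts carried the genes at far higher signals than the endothelial cells. They had 14.46 to 14.57 in RT1-Da, 14.31 to 14.53 in Cd74, 14.17 to 14.39 in RT1-Bb, 13.38 to 13.78 in RT1-Db1, 13.02 to 13.39 in RT1-DMb, 12.23 to 12.70 in RT1-DMa and 10.16 to 11.23 in Ciita. With the median gap removed, they exceeded the mean of the 9 allograft endothelial arrays by 4.12 log2 in RT1-Db1, 3.73 in RT1-DMa, 3.70 in RT1-DMb, 3.66 in RT1-Bb, 3.33 in Ciita and 3.06 in both RT1-Da and Cd74. For 7 of the 8 members all 4 leukocyte arrays were above all allograft endothelial arrays and at least 2-fold higher in the mean, as were 8.38% of all genes. The exception was the brightest RT1-Ba probe set at 0.51 log2, while the second exceeded by 4.42. With 1 array on days 2 and 4, no test was made.

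To put a scale on how much leukocyte RNA the class II signals would need, the gain of each gene in graft endothelium over normal endothelium was given, on the linear scale, as a percentage of the gap between leukocytes and normal endothelium. Genes whose gain came wholly from cells like the measured leukocytes would all give about the same percentage. The reference was 14 of 16 pan-leukocyte genes whose leukocyte signal was at least 4-fold above normal endothelium. Their medians were 6.10%, 5.37% and 8.91% in allografts of days 2, 3 and 4, with ranges of 0.77% to 9.95%, -0.25% to 11.6% and 3.81% to 13.0%.

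Against this, the members spread out with time. In allografts of days 2, 3 and 4 RT1-Da gained 7.28%, 11.15% and 19.95% of the leukocyte signal and Cd74 5.88%, 11.7% and 23.3%. RT1-Bb gained 4.31%, 7.09% and 15.35%, and Ciita 2.30%, 2.75% and 17.4%. By day 4 these 4 were above every one of the 14 pan-leukocyte genes. RT1-Db1 gained 3.09%, 5.22% and 10.1%, RT1-DMa 4.94%, 4.68% and 9.17%, RT1-DMb 5.57%, 4.84% and 10.2%, and the second RT1-Ba probe set 2.37%, 4.80% and 8.19%. The brightest RT1-Ba probe set has no useful percentage, since leukocytes were only 1.2-fold above normal endothelium in it. RT1-Db1, RT1-DMa, RT1-DMb and the second RT1-Ba probe set lay within the range of the pan-leukocyte genes on each day. On day 4 the 2 chains of RT1-D thus differed, 19.95% against 10.1%, as did those of RT1-B, 15.35% against 8.19%. Allograft hearts were DA and the leukocytes Lewis, so sequence differences under a probe cannot be told apart from RNA in these percentages.

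Array by array, Cd74 was above the highest pan-leukocyte gene of the same array on 6 of 9 allograft arrays, RT1-Da on 5 of 9, RT1-Bb and Ciita on 1 of 9 each, and RT1-Db1, RT1-DMa and RT1-DMb on 0 of 9. For Ciita the exception was allograft day 4 replicate 3 at 40.4%, where the other 2 arrays of that day had 4.41% and 7.38%. Cd74 on the same 3 arrays had 9.0%, 22.3% and 38.5%, with the highest again on replicate 3. Leaving that array out, the day 4 gain of Ciita was 5.90%, that of Cd74 15.7%, that of RT1-Da 17.7% and that of RT1-Bb 11.1%. The pan-leukocyte reference given above includes that array. The pan-leukocyte median was 12.2% on replicate 3 and 5.09% and 11.2% on the other 2 arrays of that day.

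Other leukocyte lists gave other percentages, so the reference is not a single number. On allograft day 4, 11 T cell genes had a median of 14.2% (5.86% to 22.04%) and 18 macrophage genes a median of 9.46% (4.52% to 44.3%, the highest being lysozyme Lyz2). The 5 dendritic cell genes at least 4-fold higher in leukocytes had a median of 2.83% (0.78% to 7.41%), below every chain read here, Cd74 and Ciita, and the only 2 such B cell genes had 1.84% (Cd22) and 28.79% (Pou2af1). RT1-Da, RT1-Bb and Ciita lay within the T cell range and Cd74 just above it, and all 4 lay under the highest macrophage gene. The brightest members were close to the top of the leukocyte arrays, where the highest signal of any gene was 14.73 to 14.84, and what a ceiling there does to their percentages was not tested.

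In isografts these percentages were lower. The leukocytes measured came only from allografts, so the isograft percentages rest on a reference from the other graft type. On days 2, 3 and 4 RT1-Da gained 1.29%, 3.18% and 4.01%, Cd74 0.83%, 2.40% and 3.98% and RT1-DMb 2.62%, 3.55% and 4.06%. The pan-leukocyte medians were 1.60%, 2.40% and 3.34%, with highest values of 3.00%, 7.32% and 8.29%. On 0 of 9 isograft arrays was RT1-Da, Cd74, RT1-Bb, either DM chain, RT1-Db1 or Ciita above the highest pan-leukocyte gene. Ciita gained -0.50%, 0.59% and -0.19%.

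**Figure D4:**
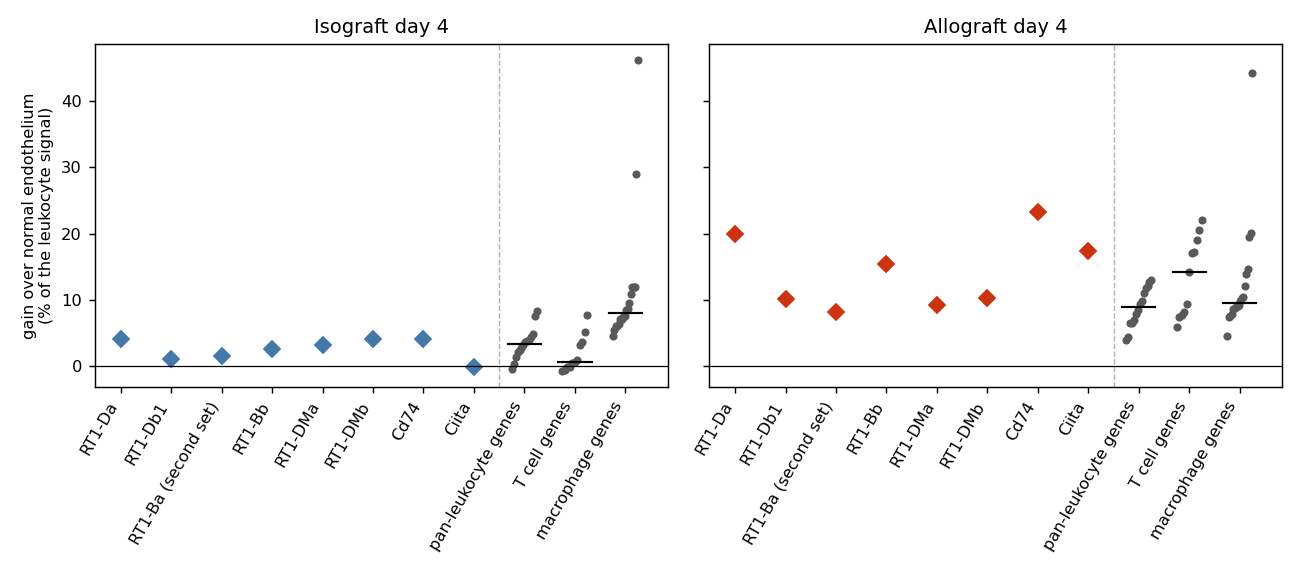
Gain over normal endothelium on day 4 as a percentage of the gap between allograft leukocytes and normal endothelium (vertical axis, linear signals). Isografts are on the left and allografts on the right. Members are diamonds, single genes of 3 leukocyte lists are grey points and list medians are lines. In allografts Cd74 (23.3%), RT1-Da (19.95%), Ciita (17.4%) and RT1-Bb (15.35%) lie above all 14 pan-leukocyte genes (highest 13.0%), and in isografts no member does.

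A second approach put a leukocyte signal into the limma fit as a covariate. The pan-leukocyte covariate was the mean log2 signal of all 16 measured genes of that list. It thus included Cd48 and Cd52, which the reference above left out. With this mean, the allograft day 4 difference was 2.26 ± 0.81 log2 (SE) for RT1-Da, 1.70 ± 0.96 for RT1-Bb, 1.45 ± 0.92 for Cd74, 1.38 ± 0.78 for RT1-Db1, 1.11 ± 0.37 for RT1-DMb, 0.95 ± 0.79 for Ciita and 0.60 ± 0.46 for RT1-DMa. All 7 differences were smaller than without the covariate. With Ptprc as the covariate RT1-Da had 2.28 ± 0.65 and RT1-DMb 1.48 ± 0.37, and with the mean of 18 macrophage genes 2.34 ± 1.01 and 1.00 ± 0.49. Ciita had 0.93 ± 0.70 with Ptprc and 2.18 ± 0.92 with the macrophage mean, which is above its 1.78 without a covariate, and RT1-Ba had 0.79 ± 0.46 against 0.12.

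None of the 8 members was called by limma in a graft comparison with any of these covariates. The lowest adjusted p on allograft day 4 was 0.355, for RT1-DMb with Ptprc. Before adjustment, RT1-Da and RT1-DMb were below 0.05 on that day with the pan-leukocyte mean in limma. With Ptprc these were RT1-Da, RT1-DMb, RT1-Db1 and RT1-DMa, and with the macrophage mean RT1-Da and Ciita. The share of all genes below that level is not given for these fits, so there is no reference for these results. The same fits called 0, 1 and 0 of all genes on allograft day 4 (pan-leukocyte, Ptprc, macrophage). The covariates were far higher on graft than on normal arrays, so such a fit cannot separate graft from leukocyte signal well, and the SE of RT1-Da went from 0.45 to 0.81. In isografts of day 4 RT1-Da had 1.2 ± 0.52 log2 with the pan-leukocyte mean, Cd74 0.75 ± 0.60 and RT1-DMb 0.29 ± 0.24. With the macrophage mean RT1-Da had 0.31 ± 0.93, and Cd74 at -0.46 ± 1.0 and RT1-DMb at -0.55 ± 0.45 turned sign without passing.

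**Figure D5:**
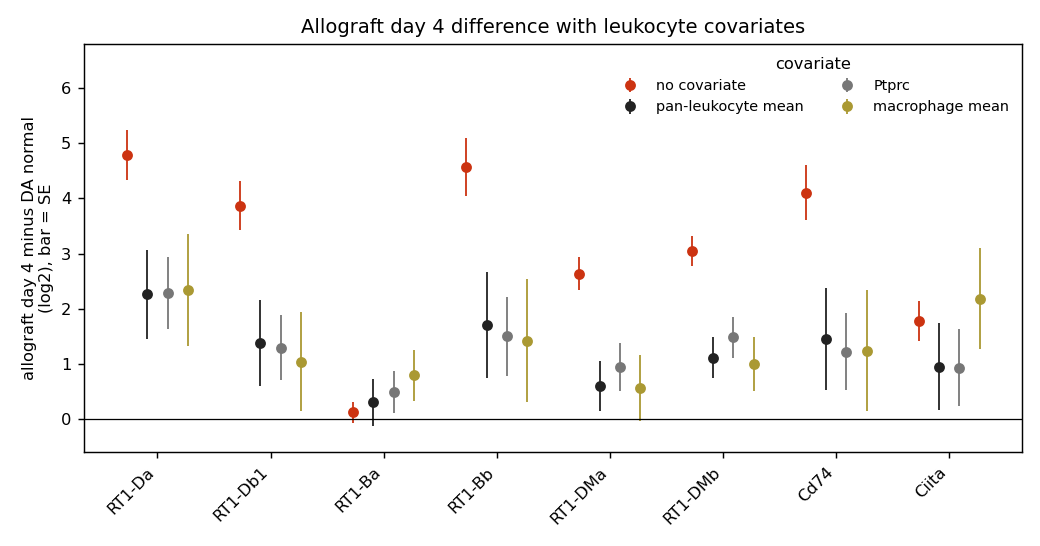
Allograft day 4 minus DA normal endothelium (log2, bars give the SE) for each gene without a covariate and with each of 3 leukocyte covariates in the fit. RT1-Da falls from 4.79 to 2.26 with the pan-leukocyte mean and RT1-DMa from 2.63 to 0.60, each with a wider error.

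Markers of the cells that could carry class II moved as follows. Of 16 pan-leukocyte genes measured, 11, 11 and 12 rose in allografts on days 2, 3 and 4 and 1, 4 and 5 in isografts, with Cd53 at 3.84, 3.51 and 4.25 log2, Coro1a at 3.01, 3.39 and 3.66 and Ptprc at 2.82, 2.93 and 3.47 in allografts. Their summed linear signal was 10574 to 13120 on normal, 13129 to 17880 on allograft, 12071 to 16123 on isograft and 67835 to 76444 on leukocyte arrays. This sum leans on Cd48, the brightest of these genes in normal endothelium (log2 12.95 in DA and 13.01 in Lewis). In leukocytes Cd48 was only 0.7-fold of the higher of these, so the sum understates the change in the other genes. Of 18 macrophage genes, 18, 16 and 18 rose in allografts and 8, 16 and 17 in isografts, with Gpnmb at 6.10, 4.36 and 5.66 log2, Mpeg1 at 4.68, 3.9 and 5.0 and Lyz2 at 4.70, 4.13 and 4.72 in allografts. Their sum was 1336 to 1955 on normal, 10242 to 35431 on allograft and 6898 to 30467 on isograft arrays, and on day 4 the allograft range of 21044 to 27797 lay inside the isograft range of 17063 to 30467.

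Of 12 T cell genes, 3, 6 and 11 rose in allografts and 1, 1 and 3 in isografts, with Cd3g at 2.00, 2.33 and 3.18 log2, Cd8a at 1.88, 1.86 and 2.67 and Cd5 at 1.83 and 2.32 on days 3 and 4. Of 8 dendritic cell genes 2, 1 and 2 rose in allografts and 0, 0 and 2 in isografts. In allografts Itgax, also found on macrophages, had 1.90, 1.74 and 2.30 log2, Cd83 1.56 log2 on day 2 and Batf3 1.12 log2 on day 4. Of 8 B cell genes 0, 0 and 1 rose in allografts and 0 in isografts on each day. The riser was Pou2af1 at 1.04 log2 on allograft day 4. In limma at an unadjusted p under 0.05 the allograft counts of higher genes were 0, 1 and 1. Cd22 had 0.24, 0.32 and 0.17 log2 and Fcrla 0.19, 0.36 and 0.17 without passing. The summed B cell signal was 442 to 673 on normal and 395 to 747 on allograft arrays. The part of T cells, dendritic cells or B cells in the class II results was not tested.

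The summed signal of 16 endothelial genes was 75447 to 85214 on normal and 59329 to 80370 on allograft arrays. Of these 2, 1 and 1 rose and 1, 0 and 3 fell in allografts, with Plvap, of venules and fenestrated vessels, at 1.98, 1.69 and 2.10 log2, the VEGF receptor Kdr at -1.04 and -0.60 log2 on days 2 and 4, and Eng at -0.38, -0.67 and -0.50 without passing.

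Some genes that handle the cargo of class II molecules passed in both kinds of graft and others did not. Of 10 peptide handling genes measured, 5, 4 and 6 rose in allografts on days 2, 3 and 4 and 4, 5 and 5 in isografts. The endosomal protease legumain (Lgmn) rose by 3.49, 2.46 and 3.60 log2 in allografts and by 2.21, 2.74 and 3.36 in isografts, and cathepsin S (Ctss), which trims the invariant chain, by 3.16, 2.59 and 3.51 and by 1.79, 2.80 and 3.22. Cathepsin C (Ctsc) rose by 1.93, 1.34 and 1.88 log2 in allografts, the thiol reductase Ifi30 by 1.05, 0.77 and 1.01 and cathepsin B (Ctsb) by 0.84 and 0.97 on days 2 and 4. Marchf1, which tags class II molecules for degradation in antigen-presenting cells, rose by 2.04 log2 on allograft day 4. In isografts Ctsc and Ifi30 also rose on each day and Ctsb on days 3 and 4, and Marchf1 had 1.31 log2 on day 4 (limma adjusted p = 0.0973). In leukocytes 7 of the 10 had at least 2-fold the signal found in allograft endothelium.

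Of 9 genes for the proteins on the X and Y boxes and their partners, 0, 0 and 1 rose in allografts and 0 in isografts on each day. The riser was Rfx5, a subunit of the X box factor RFX, at 0.50 log2 on day 4 (SE 0.12, limma adjusted p = 0.00844). At an unadjusted p under 0.05 in limma, 0, 0 and 1 of the 9 were higher in allografts and 4, 1 and 3 lower. In isografts 0, 0 and 0 were higher and 0, 1 and 0 lower. The share of all genes lower at that level is not given, so there is no reference for the lower counts.

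Of 11 genes of the interferon-gamma pathway, 0, 1 and 3 rose in allografts and 0, 1 and 0 in isografts, and at an unadjusted p under 0.05 in limma 3, 5 and 6 and 3, 2 and 3 were higher. Irf8, a transcription factor of myeloid cells that interferon-gamma also induces, rose by 1.81 and 3.05 log2 on allograft days 3 and 4 (limma adjusted p = 0.0351 and 0.000138) and had 1.05 on day 2. Nlrc5, the transactivator of MHC class I and a relative of Ciita, had -0.44 and 0.79 log2 on days 2 and 3 and rose by 1.75 on day 4 (adjusted p = 0.00121), and the receptor kinase Jak1 rose by 0.60 log2 on day 4 (adjusted p = 0.00191). Socs3, a feedback inhibitor of cytokine signals, rose by 0.96 log2 on isograft day 3 (adjusted p = 0.0405). Ciita, Nlrc5, Jak1 and Rfx5 passed in allografts on day 4 and not on day 2, where 5 class II chains and Cd74 did. Tested directly between these days, Rfx5 was 0.63 log2 higher on day 4 (limma adjusted p = 0.0159), and Ciita had 1.29 log2 (SE 0.36, adjusted p = 0.164).

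Ifng, the gene of the cytokine itself, was picked out after its values were seen. It was 3.80 to 4.47 on the normal arrays and 3.94 to 5.56 on the allograft arrays, with the highest on day 4 replicate 3, and 7.39 to 9.22 on the leukocyte arrays. Its allograft differences of 0.22, 0.62 and 0.79 log2 did not pass (limma adjusted p = 0.0943 on day 4). Allograft day 4 replicate 3 was thus the highest endothelial array in Ciita, Cd74, RT1-Da, RT1-Bb and Ifng, and the highest allograft array in Ptprc.

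Of 18 genes of MHC class I and its peptide supply, 0, 0 and 5 rose in allografts and 0 in isografts on each day. At an unadjusted p under 0.05 in limma, 0, 4 and 9 were higher in allografts and 0 in isografts. The leading ones were the peptide transporter Tap1 at -0.21, 0.77 and 1.75 log2 and the immunoproteasome subunit Psmb9 at -0.40, 0.86 and 1.16, both passing on day 4 (adjusted p = 0.000215 and 0.00846), and RT1-CE5 at -0.88, 1.16 and 1.46 without passing.

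The genes most like the class II chains and Cd74 over the 24 endothelial arrays were sought by the root mean square difference between centred log2 profiles. The 8 nearest genes outside the members were Rac2 (0.372), Fyb1 (0.389), Ptprc (0.416), Coro1a (0.418), Cd8a (0.422), Lpxn (0.430), Ly86 (0.439) and Napsa (0.444). A flat profile had 1.13 and the median gene 1.15. The members themselves lay at 0.380 (RT1-DMa) to 0.608 (RT1-Bb) from their own mean, apart from RT1-Ba at 1.2, and Ciita, which was not in that mean, at 0.813. Rac2 was 7.09 to 7.58 on the normal arrays, 7.71 to 8.90 on the isograft arrays, 9.02 to 10.38 on the allograft arrays and 12.78 to 13.07 on the leukocyte arrays. With the second RT1-Ba probe set in the mean, the nearest were Coro1a (0.409) and Ptprc (0.416), and Rac2 followed at 0.537.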

How the data were processed

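Values are deposited log2 signals that the authors computed by RMA with the affy package, per the submitters' processing notes. Versions are not given in the sources used here. RMA corrects background, normalizes and summarises probes, so arrays share a scale only where they were processed together, and the leukocyte arrays had a higher median. Of 31099 probe sets, 57 controls, 436 with several genes and 9780 without a gene were left out. The other 20826 gave 14217 genes, each by the probe set with the highest endothelial mean (4525 genes had several).

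The 24 endothelial arrays were fitted together by group in limma 3.58.1 (R 4.3.3), with Benjamini-Hochberg adjustment over all genes and a threshold of 0.05. There was no filter on dim genes. The procedure was tested on simulated data. Leukocyte arrays entered no test. Replicate numbers were not treated as pairs, since only 42 of 84 same-number pairs of arrays had correlated deviations over 0.1 (median 0.099, range -0.347 to 0.583) and pairing was taken to need all of them. Of 168 pairs with different numbers 39 were over 0.1 (median -0.045), so numbers may share something. No array was a copy of another: arrays of a group correlated at 0.965 to 0.9948 over genes.

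The members and gene lists were chosen with earlier results of these data known. The text names every member and its probe sets, the called genes of 3 pathway lists, the 3 genes with the largest mean allograft difference of each other list, with Ptprc and Cd53, and the 8 genes most like the members. Promoters came from RefSeq (GRCr8). Alternatives were the dim-gene filter, the mean of probe sets, limma's prior, the replicate block, array medians, 3 leukocyte covariates, fewer groups and leaving out each array, and for leukocyte levels the deposited scale and quantile normalization. The macrophage covariate and the fit over all probe sets were added after seeing the data.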

Additional observations from a re-analysis of the deposited data

How the results depend on the processing

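Of the 112 member differences, all 112 kept their direction where called and their side of the threshold with limma's trended robust prior, 111 with array medians subtracted, with dim genes left out (log2 6 or more on 3 arrays kept) or with the replicate block, 109 with the mean of all probe sets, 107 with only the compared groups fitted and 85 with each covariate. The counts of members called in allografts were 6, 6 and 7 on days 2, 3 and 4 without any 1 of the 24 arrays. The replicate block was run although the numbers were not treated as pairs. It called 0, 0, 3, 5, 6, 6 and 7 members for strain, isograft and allograft days 2 to 4 (RT1-Bb passed on isograft day 3, adjusted p = 0.0401) and 166, 255, 433, 504, 1050, 362 and 1889 of all genes. By deviations from the group mean, 16 of 24 arrays had their highest mean correlation with arrays of their own number in other groups.

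With covariates, 0 members were called on isograft days 3 and 4 and on allograft days 2 to 4, and 1 (RT1-DMb) between strains. Of all genes, the pan-leukocyte covariate called 62, 41 and 33 on isograft days 2 to 4 and 3, 0 and 0 on allograft days, Ptprc 52, 30 and 29 and 11, 2 and 1, and the macrophage mean 23, 0 and 0 and 0, 0 and 0, where the fit without covariate called 211, 360 and 450 and 850, 324 and 1627. Between days 4 and 2 the pan-leukocyte covariate called 35 genes in allografts and 3 in isografts, Ptprc 32 and 2, and the macrophage mean 0 in isografts and 0 for the difference of graft types, where 54, 5 and 1 were called without. The mean change difference called 0 of all genes with each covariate and with array medians subtracted, and 1 without. With the macrophage mean, called differences turned sign without passing: -0.32 for RT1-DMb on isograft day 3, -0.42 for RT1-Bb, -0.58 for RT1-DMa, -0.55 for RT1-DMb and -0.46 for Cd74 on isograft day 4, and -0.13 for RT1-Db1 and -0.082 for Cd74 on allograft day 2. The cause was not tested. With the compared groups alone, 1 member was called between strains and 4 on isograft day 3, and of all genes 562 on isograft day 3, 510 and 514 on allograft days 2 and 4, 3 and 2 for the change difference of days 3 and 4, and 0, 1 and 0 between days 4 and 2 in allografts, in isografts and for their difference. That fit has fewer arrays to estimate the spread. As deposited, leukocytes exceeded allograft endothelium by 0.87 log2 in RT1-Ba.

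Leaving out 1 array in turn, members called ranged from 0 to 3 on isograft day 3, 1 to 5 on day 4, 0 to 3 for the change difference of day 4 and for allograft day 4 against 2, and 0 to 2 for isograft day 4 against 2. All genes called ranged from 75 to 175 between strains, 92 to 259, 150 to 470 and 246 to 586 in isografts, 421 to 1063, 168 to 433 and 862 to 2606 in allografts, 0 to 1, 1 to 81 and 0 to 1 for the change difference of days 3, 4 and the mean, and 15 to 506, 1 to 17 and 1 to 40 for day 4 against 2 in allografts, isografts and their difference. The gain on allograft day 4 ranged from 17.67% to 22.97% in RT1-Da, 15.66% to 30.39% in Cd74 and 5.9% to 23.88% in Ciita. Small differences in signals near background, as of the second RT1-Bb probe set, are not resolved.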
